A study of Homo sapiens with 6 samples.

Results

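Aldo-keto reductases are enzymes that use NADPH to reduce aldehydes and ketones to alcohols, and 7 genes of their AKR1 and AKR7 families were followed in copper-adapted renal carcinoma cells. The genes are AKR1A1, AKR1B1, AKR1B10, AKR1C1, AKR1C2, AKR1C3 and AKR7A2. They were located by symbol, from a list chosen with earlier results of these data known. All 7 were found among the 25992 genes of the deposited table. The cells were 786-O, an established human renal cell carcinoma line labelled as wild type and grown in DMEM/F12 medium with 10% serum. In 3 cultures the serum had been loaded with copper sulfate overnight in the cold, and the cells are described as adapted to it, with no duration given in the labels. The 3 controls received serum handled alike without copper. A single dose of 30 uM is named for the series, whereas the 3 copper samples are individually labelled 30, 31 and 32 uM (replicates 1, 2 and 3). They were treated as 1 group. One cell line stands for the tumour here. The labels do not say whether replicates were adapted separately, so p-values measure only the spread between these 6 samples.

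The family works at several points of cell metabolism. AKR1B1 is aldose reductase, which turns glucose into sorbitol, an osmolyte of the kidney medulla. AKR1B10, its close relative, reduces retinal and reactive lipid aldehydes. The AKR1C enzymes act on steroids and prostaglandins: AKR1C1 inactivates progesterone, AKR1C2 inactivates dihydrotestosterone, and AKR1C3 forms testosterone and reduces prostaglandins. AKR1A1 is a broad aldehyde reductase, and AKR7A2 reduces succinic semialdehyde and aflatoxin-derived aldehydes. AKR1C genes and AKR1B10 are widely used as readouts of NRF2, a transcription factor activated by oxidants and electrophiles.

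The AKR1C genes lie side by side on chromosome 10 and are so alike that reads can match more than 1 of them. Their first 150 coding bases (GENCODE 29, 5′ to 3′) are shown because the split of counts among the genes rests on such differences. Capitals mark positions where the 3 genes are not all identical.
AKR1C1: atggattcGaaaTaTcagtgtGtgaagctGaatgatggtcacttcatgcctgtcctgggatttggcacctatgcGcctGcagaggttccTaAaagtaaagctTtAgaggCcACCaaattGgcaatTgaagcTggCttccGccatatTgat
AKR1C2: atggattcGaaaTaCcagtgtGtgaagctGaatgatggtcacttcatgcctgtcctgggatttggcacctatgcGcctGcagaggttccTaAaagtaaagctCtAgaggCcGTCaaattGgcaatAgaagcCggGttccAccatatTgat
AKR1C3: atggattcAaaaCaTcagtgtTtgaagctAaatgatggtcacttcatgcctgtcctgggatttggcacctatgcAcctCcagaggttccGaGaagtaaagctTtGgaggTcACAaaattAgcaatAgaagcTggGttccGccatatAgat
In this stretch AKR1C1 differed from AKR1C2 at 8 positions and from AKR1C3 at 15. Over the whole coding sequence of 972 bases the differences were 19 and 79, an identity of 98.0% and 91.9%. Of all 75-base windows of the coding sequence, 33.6% in AKR1C1 were also in AKR1C2, and 7.7% were also in AKR1C3. AKR1B10 shared 8.2% of its windows with AKR1B15 beside it on chromosome 7, while AKR1B1, AKR1A1 and AKR7A2 shared 0 windows with any gene compared. How the authors treated reads that match several genes is not given in the sources used here, so the counts of the AKR1C genes and of AKR1B10 are uncertain as to their split, and the sum over the AKR1C genes is given as well.

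The 250 bases before a start of each AKR1C gene (RefSeq, GRCh38.p14, 5′ to 3′ on the gene's strand) are shown because these windows are alike while their counts differ. Capitals mark a CCAAT box, read on the reverse strand as ATTGG.
AKR1C1 at chr10:4963165-4963414, plus strand: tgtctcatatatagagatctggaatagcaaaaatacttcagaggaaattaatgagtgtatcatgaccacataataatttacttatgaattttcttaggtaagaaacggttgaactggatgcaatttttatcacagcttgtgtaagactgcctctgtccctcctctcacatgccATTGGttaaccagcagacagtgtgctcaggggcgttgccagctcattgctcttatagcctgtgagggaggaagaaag
AKR1C2 at chr10:5003858-5004107, minus strand: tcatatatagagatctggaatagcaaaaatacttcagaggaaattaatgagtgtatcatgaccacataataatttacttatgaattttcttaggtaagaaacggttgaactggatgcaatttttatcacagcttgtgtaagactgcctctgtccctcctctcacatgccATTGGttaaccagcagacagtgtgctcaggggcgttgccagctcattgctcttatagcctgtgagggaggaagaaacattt
AKR1C3 at chr10:5094164-5094413, plus strand: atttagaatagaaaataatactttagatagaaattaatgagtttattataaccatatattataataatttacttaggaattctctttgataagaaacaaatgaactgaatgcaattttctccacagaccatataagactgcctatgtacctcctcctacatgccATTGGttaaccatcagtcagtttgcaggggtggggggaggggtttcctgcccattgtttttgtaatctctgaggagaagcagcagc
The AKR1C1 and AKR1C2 windows were identical at 245 of 246 aligned bases (99.6%), and AKR1C1 and AKR1C3 at 185 of 234 (79.1%). The CCAAT box began 77, 81 and 86 bases before these starts of AKR1C1, AKR1C2 and AKR1C3, and 32.0% of 35114 windows of this length in the RefSeq table held one on either strand. The core of the antioxidant response element bound by NRF2, TGACNNNGC, had 0 matches on either strand in these 3 windows and 3 in that of AKR7A2, beginning 167, 156 and 95 bases before its start, the first of them on the reverse strand. It was present in 10.9% of all windows. The metal response element core, searched as TGCACNC and TGCGCNC, the AP-1 site TGANTCA and the TATA box TATAAA had 0 matches on either strand in the windows of AKR1A1, AKR1B1, AKR1C1, AKR1C2, AKR1C3 and AKR7A2. Over all windows they were present in 9.87%, 16.8%, 6.57% and 10.7%. These letters were searched in these windows only, so nothing follows about more distant sites. The AKR1C2 window is the one the RefSeq table gives, before a start 14176 bases inside the gene as deposited, whereas the 5′ end of the whole RefSeq gene lies 33 bases from the deposited one. For AKR1B1, AKR1C3 and AKR7A2, each with 2 RefSeq starts, the one at the deposited start was used. AKR1B10 was not among the matched genes.

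Library totals ranged from 16301772 to 18189469 counts for copper and from 19219090 to 25079913 for control, and 12944 genes passed the filter on low counts. Levels are given as CPM, the usual depth-scaled count, computed with TMM library sizes. Without a block on replicate number, edgeR called 0 of 12944 genes at an adjusted p under 0.05 (0% of genes), and 455 (3.52%) had an unadjusted p under 0.05. DESeq2 called 27 genes (0.209%) and limma-voom 0. With the block edgeR called 22 genes. Below, unblocked and blocked refer to these 2 edgeR fits. Replicate 3 stood apart in both groups: chi-square per degree of freedom against replicates 1 and 2 was 57.8 and 61.1 in copper and 20.6 and 19.8 in control, compared with 5.55 and 5.04 between replicates 1 and 2. Of 10 markers of renal epithelium and clear cell carcinoma, 9 had at least 1 CPM in every library, among them PAX8 (123 to 147 CPM), while the carcinoma marker CA9 was near 0 with at most 2 counts. Their summed level ranged over 4972 to 6452 CPM with copper and 5398 to 5816 without. The 4 immune markers used summed to at most 0.701 CPM in copper and 0.838 in control, with CD3E and PTPRC at 0 in some libraries. Endothelial markers summed to at most 1.40 and 1.52 CPM. The fibroblast list summed to 96.3 to 219 CPM with copper and 153 to 286 without, nearly all COL6A3. In this list LUM had 1.57 to 4.71 CPM and DCN 0.244 CPM or less. The hepatocyte list summed to 25.2 to 60.7 and 31.5 to 42.7 CPM, nearly all SERPINA1, with ALB at 0.610 CPM or less. None of these markers that were tested was called in either edgeR fit, and their part in the results below was not tested.

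Copper-adapted cells held about 3 to 4 times as much RNA of AKR1C3, AKR1C1 and AKR1B10 as controls, while AKR1B1, AKR1A1 and AKR7A2 were within 1.25-fold of control on average. The groups did not overlap for those first 3 genes, which is 3 of the 6 members tested, against 5.45% of all genes tested that were higher in copper without overlap. Unblocked edgeR called 0 of the 6, though 3 had an unadjusted p under 0.05, as did 3.52% of all genes tested. Blocked edgeR called 2, DESeq2 without a block 3 and limma-voom 0. Over all genes tested, blocked edgeR called 0.17% and DESeq2 without a block 0.209%, in either direction. AKR1C2 was too scarce for the filter and was not tested. In bulk RNA, more cells expressing a gene and more RNA per cell cannot be told apart.

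**Figure D1:**
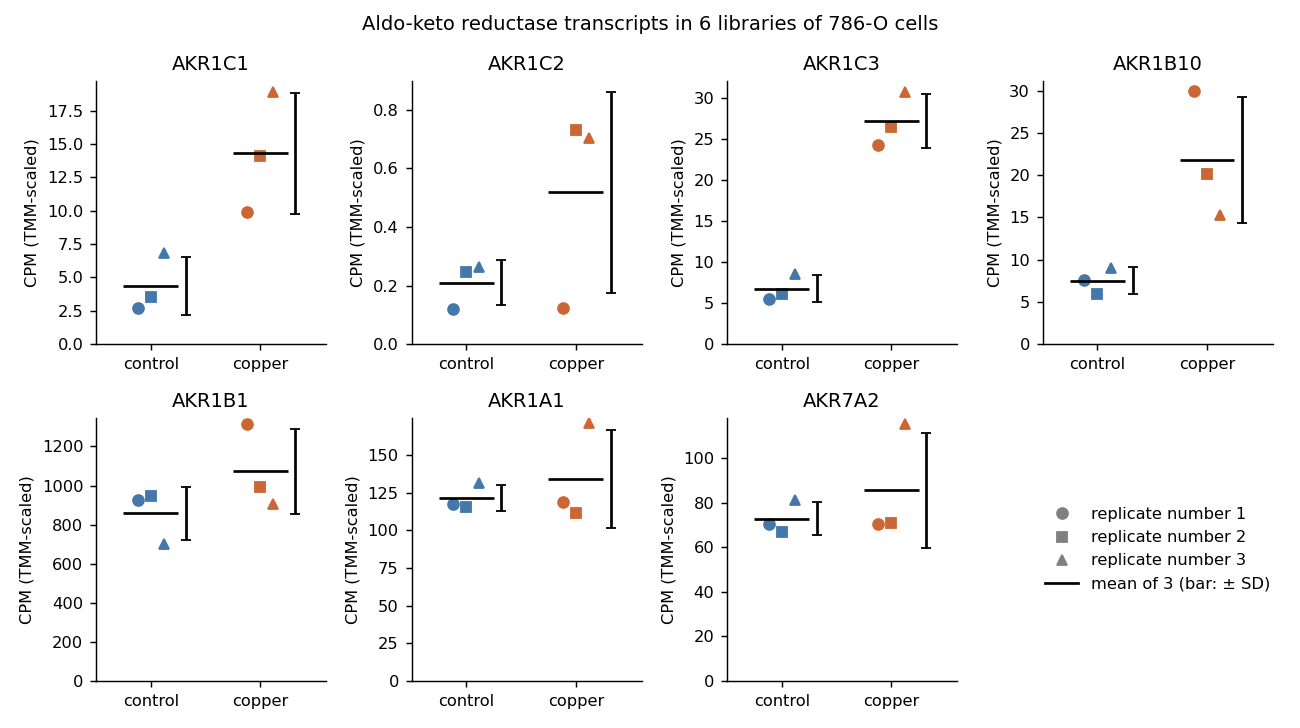
TMM-scaled CPM of each gene (vertical axis, starting at 0, with its own scale per gene) in control and copper libraries; symbols mark the replicate number, lines the mean of 3 libraries and bars ± SD. Copper libraries lie above all controls for AKR1C1, AKR1C3 and AKR1B10, and the groups overlap for the other genes.

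AKR1C3 (Entrez 8644; chromosome 10, 5094414 to 5107686, plus strand), the reductase that forms testosterone and reduces prostaglandins, had the clearest separation of the members by p. Its 3 copper libraries had 24.3, 26.5 and 30.8 CPM and its controls 5.55, 6.08 and 8.59 CPM. Every copper library stood well above the highest control, and replicate 3 was the highest in each group. The means were 27.2 ± 3.30 and 6.74 ± 1.63 CPM (SD, n = 3), a 4.03-fold ratio. Its log2 fold change was 2.00 (95% interval 1.56 to 2.44). Of the 12944 genes tested, AKR1C3 had the smallest p of all in both edgeR fits. edgeR gave an adjusted p of 0.0843 (unblocked) and 0.000869 (blocked), so that AKR1C3 rose in the blocked fit, where 0.17% of genes were called in either direction. DESeq2 called it without a block (adjusted p 8.23e-18), as did edgeR without copper replicate 3 (adjusted p 0.00557). When any other single library was left out, the adjusted p by edgeR was 0.0570 to 0.728.

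AKR1C1 (Entrez 1645; chromosome 10, 4963415 to 4983282, plus strand), the progesterone-inactivating member, had 9.88, 14.1 and 18.9 CPM in copper and 2.73, 3.53 and 6.81 CPM in control. The groups did not overlap, and replicate 1 was the lowest and replicate 3 the highest library of each. The means were 14.3 ± 4.51 and 4.36 ± 2.16 CPM (SD, n = 3), a 3.28-fold ratio with a log2 fold change of 1.70 (95% interval 0.85 to 2.55). The unblocked adjusted p by edgeR was 0.804. With the block the interval narrowed to 1.40 to 2.05 and AKR1C1 rose (edgeR adjusted p 0.00548), ranking 4 of all genes by p. DESeq2 without a block called it too (adjusted p 0.00195). Unblocked edgeR did not call it when any single library was left out, and without copper replicate 3 the log2 fold change was 1.45 (adjusted p 0.293).

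AKR1C2 (Entrez 1646; chromosome 10, 4987776 to 5018033, minus strand), whose coding sequence and upstream window nearly match those of AKR1C1, was almost absent. It had 2, 13 and 13 counts in copper and 3, 5 and 5 in control. Counting error alone spans 6.92 to 22.2 counts around 13 and 1.62 to 11.7 around 5 (exact Poisson 95% intervals). Copper replicate 1, at 0.122 CPM, lay within the control range of 0.121 to 0.262 CPM. Fitted without the filter on low counts, the log2 fold change by edgeR was 1.01 unblocked and 0.94 blocked. The unadjusted p was 0.0482 and 0.0233, and the adjusted p 0.975 and 0.451, so AKR1C2 was called in neither. In each library AKR1C2 took 0.356% to 2.49% of the counts of the AKR1C1, AKR1C2 and AKR1C3 genes together.

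Summed over AKR1C1, AKR1C2 and AKR1C3, which removes the question of how reads were split among them, the level was 34.3, 41.3 and 50.3 CPM in copper and 8.41, 9.85 and 15.7 CPM in control. All copper libraries were again above all controls. The means were 42.0 ± 8.06 and 11.3 ± 3.84 CPM (SD, n = 3), a ratio of 3.71, given as a description with no test. Any reads the authors discarded for matching several genes would still be missing from it. AKR1C3 took the larger share in every library, between 61.1% and 70.8% with copper and between 54.8% and 66.0% without. The share of AKR1C1 was 33.5% ± 4.38 in copper and 37.3% ± 5.61 in control (SD, n = 3), and the groups overlapped. Within each replicate number it was lower in copper, at 28.8%, 34.2% and 37.5% against 32.5%, 35.8% and 43.5% in control. This shift was not tested. Within each group the share of AKR1C1 was highest in replicate 3.

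**Figure D2:**
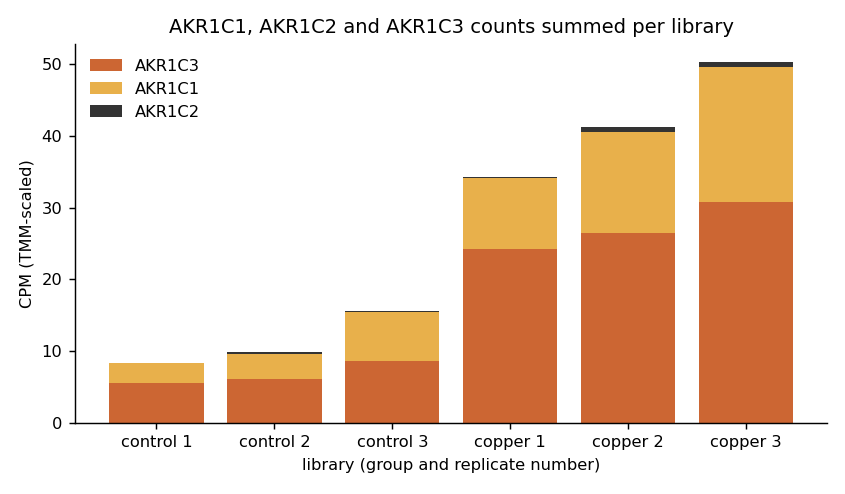
Stacked bars give the TMM-scaled CPM of AKR1C3, AKR1C1 and AKR1C2 in each of the 6 libraries (axis starting at 0). Copper libraries reach 34.3 to 50.3 CPM and controls 8.41 to 15.7 CPM, with AKR1C3 the largest part of every bar and AKR1C2 barely visible.

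AKR1B10 (Entrez 57016; chromosome 7, 134527567 to 134541412, plus strand), which reduces retinal and lipid aldehydes, had 29.9, 20.1 and 15.3 CPM in copper and 7.56, 5.98 and 9.06 CPM in control. The groups did not overlap, but the order of the copper libraries was the reverse of that for AKR1C1, with replicate 1 highest and replicate 3 lowest. The means were 21.8 ± 7.47 and 7.54 ± 1.54 CPM (SD, n = 3), a 2.89-fold ratio with a log2 fold change of 1.52 (95% interval 0.90 to 2.14). AKR1B10 passed the threshold in neither edgeR fit (adjusted p 0.462 unblocked, 0.0533 blocked). DESeq2 without a block called it (adjusted p 5.21e-05), and so did edgeR without copper replicate 3 (log2 fold change 1.72, adjusted p 0.0353). Without copper replicate 1 the log2 fold change was 1.22 (edgeR adjusted p 0.807), and leaving out any single library other than copper replicate 3 gave no call. Its neighbour AKR1B15, 93.8% identical in aligned coding sequence, had 0.975, 1.74 and 0.971 CPM in copper and 0.603, 0.588 and 0.367 CPM in control. These groups did not overlap either, though the gene had only 7 to 31 counts in a library, passed the filter through its copper libraries and was not called (edgeR adjusted p 1.00 unblocked and 0.325 blocked).

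AKR1B1 (Entrez 231; chromosome 7, 134442350 to 134459239, minus strand), the aldose reductase of the polyol pathway, was by far the most abundant member. It had 1316, 993 and 908 CPM in copper and 926, 947 and 702 CPM in control. The groups overlapped, since copper replicate 3 lay below controls 1 and 2. The means were 1072 ± 216 and 858 ± 136 CPM (SD, n = 3), with a log2 fold change of 0.32 (95% interval -0.09 to 0.73). edgeR's adjusted p was 1.00 unblocked and 0.468 blocked, with a blocked interval of 0.09 to 0.54. A gain as large as that of AKR1C1 or AKR1C3 lies outside both intervals.

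AKR1A1 (Entrez 10327; chromosome 1, 45550826 to 45570049, plus strand), the broad aldehyde reductase, had 119, 112 and 171 CPM in copper and 118, 115 and 131 CPM in control. Only replicate 3 stood out, as the highest library of each group. The log2 fold change was 0.14 (95% interval -0.25 to 0.53; edgeR adjusted p 1.00 unblocked and 0.729 blocked). Without copper replicate 3 it was -0.08.

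AKR7A2 (Entrez 8574; chromosome 1, 19302708 to 19312146, minus strand), the succinic semialdehyde reductase, had 70.3, 70.9 and 115 CPM in copper and 70.3, 67.0 and 81.4 CPM in control. Replicates 1 and 2 of both groups were nearly level, and replicate 3 was again highest in each. The log2 fold change was 0.23 (95% interval -0.24 to 0.70; edgeR adjusted p 1.00 unblocked and 0.640 blocked), and -0.05 without copper replicate 3. For both genes the interval of the difference leaves room for a shift of either sign smaller than 1 log2 unit.

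**Figure D3:**
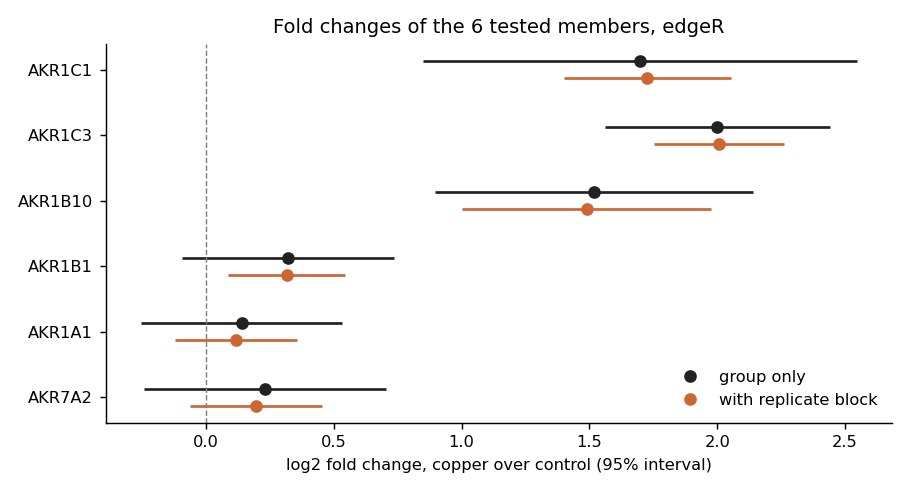
Log2 fold change of copper over control (horizontal axis) with 95% intervals from edgeR for the 6 tested members, with group as the only term (black) and with the replicate block (orange). The intervals of AKR1C1, AKR1C3 and AKR1B10 lie above 0 in both fits, and those of AKR1A1 and AKR7A2 include 0 in both.

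Read per kilobase of coding sequence, which is 951 to 1080 bases in all 7 genes, AKR1B1 and AKR1C2 lay at the opposite ends of the order. In control the order was AKR1B1 (903 ± 143 CPM per kilobase), AKR1A1 (124 ± 8.88), AKR7A2 (67.5 ± 6.99), AKR1B10 (7.92 ± 1.62), AKR1C3 (6.93 ± 1.67), AKR1C1 (4.48 ± 2.22) and AKR1C2 (0.215 ± 0.0794; SD, n = 3 for each). AKR1B10, AKR1C3 and AKR1C1 followed each other within their spread. In copper AKR1C3 (27.9 ± 3.40) stood next to AKR1B10 (22.9 ± 7.85) and AKR1C1 (14.7 ± 4.64), still below AKR7A2 (79.2 ± 23.9) and AKR1A1 (137 ± 33.3). AKR1B1 remained at 1128 ± 227. Per kilobase of all annotated exons, AKR7A2 came before AKR1A1 in both groups (48.0 ± 14.5 against 42.9 ± 10.4 in copper), within their spread. On this exon scale AKR1B10 also came before AKR1C3 in copper, at 12.5 ± 4.28 against 5.99 ± 0.729 CPM per kilobase (SD, n = 3), the reverse of the order per coding length. The order of these 2 genes in copper thus depends on the length used. AKR1B1 made up 72.0% to 83.9% of the CPM of the 7 genes together in copper and 74.7% to 82.7% in control.

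Differences taken within a replicate number show which members depend on a single library. AKR1C3 was higher in copper by 2.11, 2.10 and 1.83 in log2 CPM in replicates 1, 2 and 3. AKR1C1 was higher by 1.81, 1.97 and 1.46, and AKR1B10 by 1.97, 1.73 and 0.75. The replicate 3 difference was the smallest for all 3 genes, and the values were farthest apart for AKR1B10. Whether these differences are truly smaller in replicate 3 was not tested, since replicate 3 has 1 library per group. AKR1B1 differed by 0.51, 0.07 and 0.37. AKR1A1 differed by 0.01, -0.04 and 0.38, and AKR7A2 by 0.000070, 0.08 and 0.50, so in both the difference came from replicate 3. In replicates 1 and 2 alone, where edgeR called 0.856% of all genes, it called AKR1C3 (adjusted p 4.72e-06), AKR1C1 (0.00169) and AKR1B10 (0.0177).

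**Figure D4:**
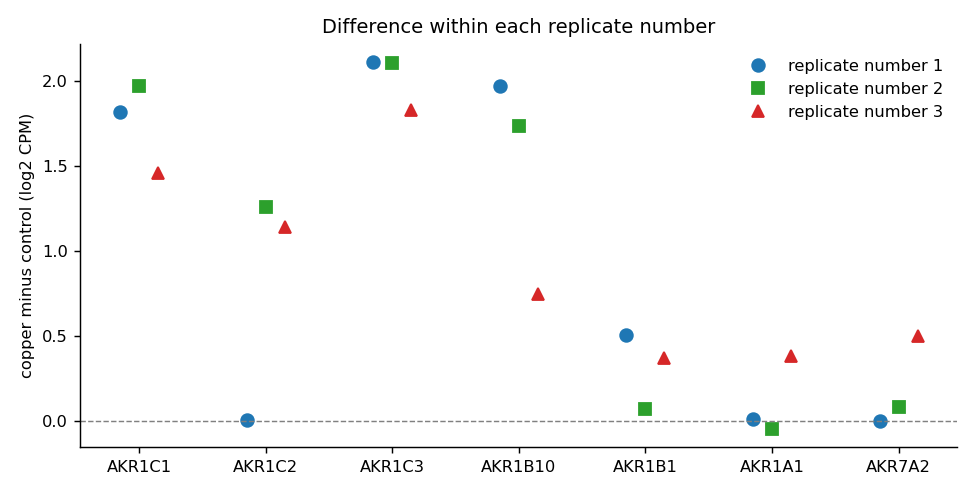
Copper minus control in log2 CPM (vertical axis) within replicate numbers 1, 2 and 3 for each gene. AKR1C1, AKR1C3 and AKR1B10 are above 0 in every replicate number, with AKR1B10 at 0.75 in replicate 3, and AKR1A1 and AKR7A2 leave the zero line mainly in replicate 3.

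The members also differed between replicate numbers. With group as a term, edgeR called 5 of the 6 tested members between replicate 3 and replicates 1 and 2, where 29.6% of all genes were called. AKR1C1 (log2 difference 0.85, adjusted p 0.00864), AKR7A2 (0.48, adjusted p 0.00940), AKR1A1 (0.38, adjusted p 0.0184) and AKR1C3 (0.39, adjusted p 0.0260) were higher in replicate 3. AKR1B1 was lower there (-0.38, adjusted p 0.0274). AKR1B10 was not called (-0.14, adjusted p 0.537). For AKR1C1 and AKR1C3 this difference was smaller than that between copper and control.

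AKR1A1 and AKR7A2 followed nearly the same course over the 6 libraries. Their log2 CPM values, each centred on its own mean, differed by a root mean square of only 0.07, the smallest of the 21 pairs of members. AKR1C1 and AKR1C3 differed by 0.29, and AKR1C3 and AKR1B10 by 0.48. Outside the family, among 10285 genes averaging 5 CPM or more, the gene closest to AKR1C3 by this measure was MT1X, a copper- and zinc-binding metallothionein, at 0.11. Its CPM was 33.1, 43.0 and 43.5 in copper and 7.60, 8.24 and 13.6 in control. HMOX1, the heme-degrading oxygenase, came second at 0.47 and MT2A, another metallothionein, at 0.50. For AKR1C1 the nearest were MT1X (0.26), GDF15, a stress-induced cytokine (0.44), and HMOX1 (0.47). GDF15 had 4.94, 7.96 and 9.93 CPM in copper and 2.78, 3.77 and 4.93 CPM in control, so its groups nearly touched at copper replicate 1 and control 3. This likeness is a description over 6 libraries that share the group difference and the distance of replicate 3. AKR1A1 and AKR7A2 were both higher in replicate 3, a contrast in which 29.6% of all genes were called in either direction.

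Most other aldo-keto reductases were scarce in these cells. Of 10 further family genes found in the table, 4 were tested and 0 were called in either direction, in either edgeR fit. Besides AKR1B15 these were the potassium channel beta subunits KCNAB1, KCNAB2 and KCNAB3. KCNAB3 had a log2 fold change of -0.36 (edgeR adjusted p 1.00). The liver enzyme AKR1C4 had 1 count in copper replicate 1 and 0 in the other 5 libraries.

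Lists of related enzymes gave 0 calls in the unblocked fit. Of 18 short-chain carbonyl reductases, which reduce carbonyls with another protein fold, 17 had a log2 fold change above 0 and 0 were called in either fit. Their median was 0.16, against 0.0051 for all genes tested. Of all 12944 genes tested, 6652 were above 0, which is the background for this count in each list. HSD11B1, which regenerates cortisol, had the smallest p of this list, with a log2 fold change of 1.20 (edgeR adjusted p 1.00 unblocked and 0.548 blocked). It had 0.427, 1.07 and 1.94 CPM in copper and 0.603, 0.245 and 0.472 CPM in control, so that copper replicate 1 lay within the control range. DHRS11 had 12.1 ± 0.887 CPM in copper and 10.2 ± 0.595 in control (SD, n = 3). Of 15 tested aldehyde and alcohol dehydrogenases, which oxidise aldehydes or alcohols, 8 were above 0 with a median of 0.02, and 0 were called in either fit. ALDH3A2, the fatty aldehyde dehydrogenase, had a log2 fold change of 0.50, at 42.2, 41.5 and 35.2 CPM in copper and 26.9, 27.4 and 29.9 CPM in control (edgeR adjusted p 0.804 unblocked and 0.194 blocked). ALDH1L2, a mitochondrial folate enzyme, was at -0.35 (adjusted p 1.00).

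In the steroid and prostaglandin list, 14 of 18 tested genes were above 0, with a median of 0.11, and 0 were called in either fit. PTGR1, a prostaglandin reductase, had 98.6, 96.7 and 115 CPM in copper and 76.7, 74.0 and 76.4 CPM in control, with no overlap (log2 fold change 0.45; edgeR adjusted p 0.804 unblocked and 0.162 blocked). PTGES2 had a log2 fold change of 0.27. In the polyol and methylglyoxal list, 8 of 11 tested genes were above 0 with a median of 0.07, and 0 were called in either fit. SORD, which takes the sorbitol made by AKR1B1 on to fructose, was at 0.0021. Chosen after its value was seen, it is named as the next enzyme after AKR1B1. KHK and PARK7 had log2 fold changes of 0.41 and 0.15.

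NADPH, the reductant of all 7 enzymes, is supplied by enzymes of which 9 of 16 were above 0, with a median of 0.13, and 0 were called in either fit. PGD of the pentose phosphate pathway had 208, 198 and 170 CPM in copper and 151, 144 and 127 CPM in control, without overlap (log2 fold change 0.45; edgeR adjusted p 1.00 unblocked and 0.121 blocked). ME3, a mitochondrial malic enzyme, had a log2 fold change of 1.21 at only 1.49 ± 0.417 and 0.586 ± 0.159 CPM (SD, n = 3; edgeR adjusted p 0.984 unblocked and 0.330 blocked). Like AKR1B15, it passed the filter through its copper libraries, with 23, 20 and 36 counts in copper and 15, 15 and 8 in control. Among NRF2 factors and classic targets, 20 of 23 tested genes were above 0 with a median of 0.27. In this list 0 genes were called without the block, and HMOX1 and the quinone reductase NQO1 rose in the blocked fit (2 of 23, against 0.124% of all genes called higher). NQO1 had 381, 326 and 325 CPM in copper and 230, 204 and 210 CPM in control, with an adjusted p by edgeR of 0.241 unblocked and 0.0232 blocked. DESeq2 without a block called 2 genes of this list and 0 of the other 6 lists. In the unblocked fit, 9 of the 82 genes tested in those other lists (11.0%) had an unadjusted p under 0.05. Of all genes 3.52% did, both counted in either direction. The 9 include AKR1B15 and ME3, which passed the filter through their copper libraries, so the filter itself raises this share. HSD11B1, with 7, 19 and 36 counts in copper and 15, 5 and 9 in control, is also among them. Because the lists were also chosen with earlier results of these data known, the share of 11.0% is a description and not a test. NFE2L2, which encodes NRF2 itself, had a log2 fold change of -0.01 and is named here after its value was seen.

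**Figure D5:**
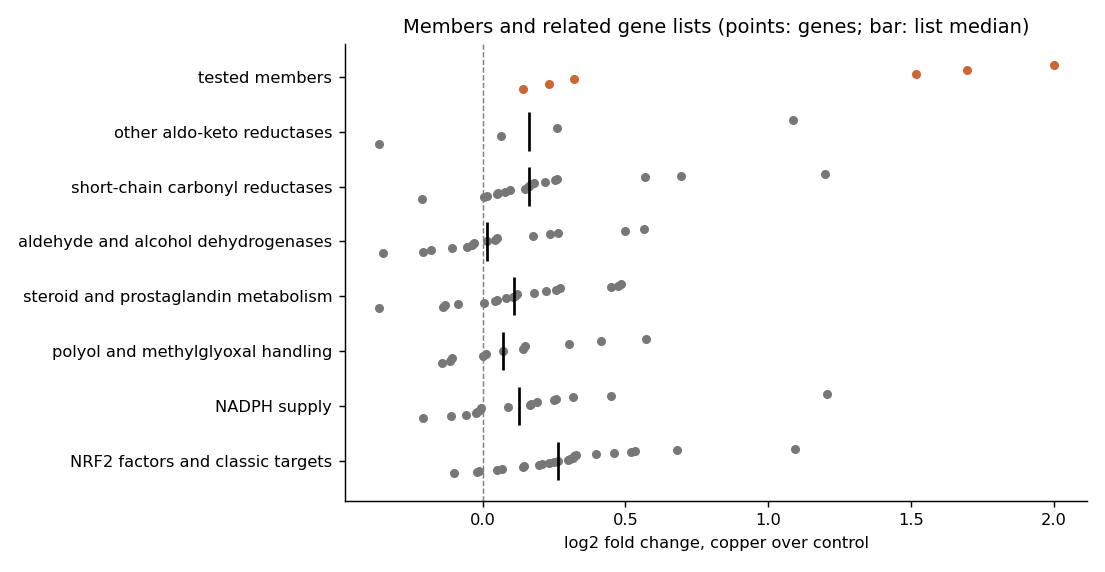
Log2 fold change of copper over control (horizontal axis) for the 6 tested members and for the tested genes of 7 related lists, 1 point per gene with a bar at each list's median. AKR1C1, AKR1C3 and AKR1B10 lie at 1.52 to 2.00, to the right of every gene of the other lists, whose medians run from 0.02 to 0.27.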

How the data were processed

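RNA was sequenced from 3 copper-adapted and 3 control cultures of 786-O cells. The authors deposited raw gene counts for 6 libraries (whole numbers, checked in the file) with Entrez numbers and positions. Per the labels' protocols, libraries were made with a directional NEBNext kit. STAR, FastQC, edgeR and the build GRCh38 are named in the submitters' processing notes. The counting program, its strand setting and its handling of reads matching several genes are not given in the sources used here. Deposited starts count from 0, and 1 was added. Of the 7 genes, 5 have the RefSeq start and 5 the RefSeq end; AKR1C3 starts 45633 bases later than in RefSeq.

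Genes without a symbol (5) were left out. R 4.3.3 and edgeR 4.0.16 were used for all genes at once: filterByExpr (minimum count 10, total 15), TMM scaling, robust quasi-likelihood test on group, Benjamini-Hochberg adjustment, threshold 0.05, prior count 2. Standard errors were the fold change over the square root of F, and 95% intervals used the fit's degrees of freedom. Same-numbered libraries were checked for pairing: their deviations from group means correlated at 0.46, 0.40 and 0.65 across 12944 genes (minimum 0.1), which are not independent replicates, so results that change under a fit blocked on replicate number are given from both fits. All 3 correlations include the distance of replicate 3 from the others, since each group mean was taken over its 3 libraries. That distance alone could carry them past the minimum, so the check does not show that same-numbered libraries were paired. The chi-square statistic between libraries of a group was at least 5.04 per degree of freedom, above sampling noise, and each library was counted once. Alternatives used DESeq2 1.42.0 and limma 3.58.1. Coding sequences were aligned with Biopython 1.88. Scripts were tested on simulated counts.

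The members, gene lists and tests were chosen with earlier results of these data known. Named beside the 7 genes were the 2 genes of each list with the smallest p, those called in the blocked fit, and the 3 genes nearest to AKR1C3 and to AKR1C1. One planned immune marker is not reported here. The contrast of replicate 3 with replicates 1 and 2 was chosen after seeing the data.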

Additional observations from a re-analysis of the deposited data

How the results depend on the processing

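The unblocked edgeR fit called 0 genes, 0 of the 7 aldo-keto reductases and 0 of the listed related genes, and all 3 counts were also 0 with RLE, upper-quartile and total-count scaling, a filter at a mean of 10 counts, limma-voom and a non-robust fit. In the same order of counts, the replicate block gave 22, 2 and 2, no filter 12, 1 and 1, DESeq2 27, 3 and 2, DESeq2 with the replicate block 58, 3 and 4, a term for replicate 3 35, 3 and 4, replicates 1 and 2 alone 111, 3 and 13, and no filter with the replicate block 243, 3 and 12. Without the block, leaving out 1 library gave 0 to 15 genes, 0 to 2 members and 0 to 2 listed genes, with calls only without copper replicate 3. With the block, leaving out 1 pair gave 74, 77 and 912 genes, 3 members each time and 4 to 26 listed genes, the most without replicate 3. The cause was not tested. AKR1C3, AKR1C1 and AKR1B10 stayed higher in copper under all 23 alternatives, with log2 fold changes of 1.87 to 2.21, 1.45 to 2.16 and 1.22 to 1.87. edgeR, DESeq2 or limma-voom called them in 11, 9 and 9 of these, with adjusted p up to 0.728 for AKR1C3 and 1.00 for the other two. These tallies include the blocked fits with 1 pair left out, in which few libraries remain to estimate the spread. AKR1B1 was above 0 in all 23 and called in 0. AKR1A1 changed sign in replicates 1 and 2 alone (-0.0170), without copper replicate 3 (-0.0761) and without replicate 3 in the blocked fit (-0.0166), and AKR7A2 without copper replicate 3 (-0.0455). With 1 library left out they reached at most 0.251 and 0.352. The summed AKR1C level stayed 1.72 to 2.20 log2 units higher under 10 alternatives. Of the scalings, total counts moved the median of all genes most, to 0.03. AKR1C2 is limited by its 2 to 13 counts in a library, and 41.0% of its 75-base coding windows are also in another gene compared.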
